A study of Caenorhabditis elegans with 2 samples.

Results

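Bidirectional promoters are stretches of DNA that lie in front of a gene on each strand, so that the genes face away from each other and share the sequence between their 5' ends. Of the 2415 peaks of a zinc finger protein, T22C8.4, in embryos of the nematode Caenorhabditis elegans, 241 (9.98%, exact binomial 95% interval 8.81 to 11.2%) had their summit in such DNA. They were chosen by position alone. A promoter window began 1000 bp before the 5' end of a protein-coding transcript and ended 200 bp after it. A summit was kept when it lay in windows of at least 1 plus-strand and at least 1 minus-strand gene. Of 249 such summits, 8 within 150 bp of a tRNA gene were left out, with signal values of 8.59 to 379. The 241 peaks made up 24.3% of the 990 promoter summits away from tRNA genes, and the other 749 had promoter windows on 1 strand only (one-direction promoter peaks below). They belonged to 227 nearest gene pairs, of which 14 had 2 peaks each, and 474 genes in all had a member in their window.

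The peaks come from chromatin immunoprecipitation with an anti-GFP antibody, followed by sequencing, on whole embryos of strain OP785 at the mid-embryonic stage. The stated age is 2 hours, with synchronisation by egg bleaching. The worms carry the transgene wgIs785, which holds T22C8.4 fused to TY1, EGFP and 3xFLAG tags with an unc-119(+) rescue gene, in an unc-119(tm4063) background, so every sample has the tagged copy and the mutant unc-119 allele. The tagged gene sits on an inserted transgene, and the labels do not say in which cells it is made. There were 2 biological replicates of this 1 group. The control alignment was not used here and no second condition was analysed, so all comparisons are between replicates and between classes of peaks. In the authors' separate lists, replicate 1 had 171 members among 1629 peaks and replicate 2 had 125 among 1319. Peak lists hold no read counts, so depth is unknown here, and each binomial interval reflects only how many peaks were counted.

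As background, a promoter shared by genes on both strands can carry separate or common regulatory sequence for each of them, and in many animals such pairs often include housekeeping genes. In C. elegans many transcripts are trans-spliced, so an annotated 5' end can be the splice site of the leader and not the start of transcription. A member may also lie before the first gene of an operon, through which downstream genes are transcribed. Proteins with C2H2-type zinc fingers, the domain annotated in T22C8.4, commonly bind DNA by short words.

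The sequences of 10 members are shown because the results on words turn on them. Each runs from 50 bp before to 50 bp after the summit, from the plus strand of the RefSeq copy of WBcel235, which is the build ce11 of the peak lists. All lie between the nearest 5' ends and outside annotated exons. Capitals mark ATCGAT or ATTGAT, together called the pattern, and the words CGCGCA and GCGCAC, each on either strand. ATCGAT is its own reverse complement. The other words also stand in capitals as their reverse complements, and CGCGCA and GCGCAC can overlap each other. Among 2321 annotated diverging pairs with no main-list summit between them, the pattern lay in 13.7% of windows of the same length around the midpoint, and CGCGCA or GCGCAC in 6.29%. The first 4 sequences are from the strongest members with the pattern that could be shown, with stronger ones left out where these bases overlapped an exon or lay on a chromosome whose sequence is not printed.
tasp-1/K01G5.10 (chrIII:10759147-10759247): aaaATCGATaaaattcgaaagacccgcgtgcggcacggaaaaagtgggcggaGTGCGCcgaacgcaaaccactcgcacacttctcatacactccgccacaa
ZK643.2/ZK643.5 (chrIII:8956405-8956505): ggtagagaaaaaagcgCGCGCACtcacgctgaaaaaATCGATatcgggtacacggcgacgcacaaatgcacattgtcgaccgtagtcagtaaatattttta
set-16/drr-2 (chrIII:13643727-13643827): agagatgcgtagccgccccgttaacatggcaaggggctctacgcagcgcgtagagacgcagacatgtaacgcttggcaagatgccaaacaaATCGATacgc
algn-5/Y45G5AM.9 (chrV:4194950-4195050): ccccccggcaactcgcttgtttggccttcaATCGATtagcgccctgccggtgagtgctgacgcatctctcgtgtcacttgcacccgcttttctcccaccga
The next 2 are strong members without the pattern, chosen in the same way, and each holds CGCGCA or GCGCAC at more than 1 place. The hach-1/nmad-1 member (229 in the main list) is weaker than the 15 strongest described below.
atx-2/ecps-1 (chrIII:10461268-10461368): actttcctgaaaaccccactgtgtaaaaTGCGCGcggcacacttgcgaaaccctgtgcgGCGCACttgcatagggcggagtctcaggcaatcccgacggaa
hach-1/nmad-1 (chrIII:5555102-5555202): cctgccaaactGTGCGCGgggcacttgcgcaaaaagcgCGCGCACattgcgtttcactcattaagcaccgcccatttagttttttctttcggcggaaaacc
The last 4 lie between genes of the same kind, namely splicing factors, replication and cell cycle genes, F-box genes and histones.
rsp-1/rsp-2 (chrII:11453131-11453231): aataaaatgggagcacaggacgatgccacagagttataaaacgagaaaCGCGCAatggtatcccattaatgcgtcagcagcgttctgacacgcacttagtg
cyb-1/orc-5 (chrIV:10735073-10735173): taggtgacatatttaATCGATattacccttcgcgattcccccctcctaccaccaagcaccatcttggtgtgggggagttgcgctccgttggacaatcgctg
fbxb-61/fbxb-63 (chrV:19303748-19303848): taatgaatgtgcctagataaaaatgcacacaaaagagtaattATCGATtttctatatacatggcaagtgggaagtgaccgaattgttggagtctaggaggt
his-41/his-35 (chrV:9545384-9545484): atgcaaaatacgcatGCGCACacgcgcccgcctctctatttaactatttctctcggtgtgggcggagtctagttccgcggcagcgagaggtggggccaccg

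In most members the summit lay between the nearest 5' ends of genes on opposite strands. This held for the nearest plus-strand and minus-strand 5' ends in 205 of 241 members (85.1%, 95% interval 79.9 to 89.3%). The summit was downstream of a nearest 5' end in the other 36. A gene can have several annotated 5' ends, so a summit counted as between can still lie inside a gene, as at spd-5. The nearest 5' ends were a median of 538 bp apart (quartiles 344 and 816 bp). The closest pair was C17D12.5 and spe-9, a gene of sperm function, whose 5' ends overlap by 7 bp (a distance of -7 bp). The most distant was mif-1, a macrophage migration inhibitory factor homologue, and ntl-3, a subunit of the CCR4-NOT deadenylase complex, at 1687 bp. The window of the rule bounds these distances. When the way from the minus-strand to the plus-strand 5' end was cut into 5 equal parts, these held 32, 44, 58, 41 and 30 of the 205 summits, so the middle part held the most. The summit was nearer to the plus-strand gene in 122 of 241 members (50.6%), so neither strand was favoured. The nearer 5' end was a median of 138 bp away and the farther one 429 bp. In one-direction promoter peaks the nearest 5' end was a median of 255 bp away. Only 42 members (17.4%) were within 200 bp of both 5' ends.

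**Figure D1:**
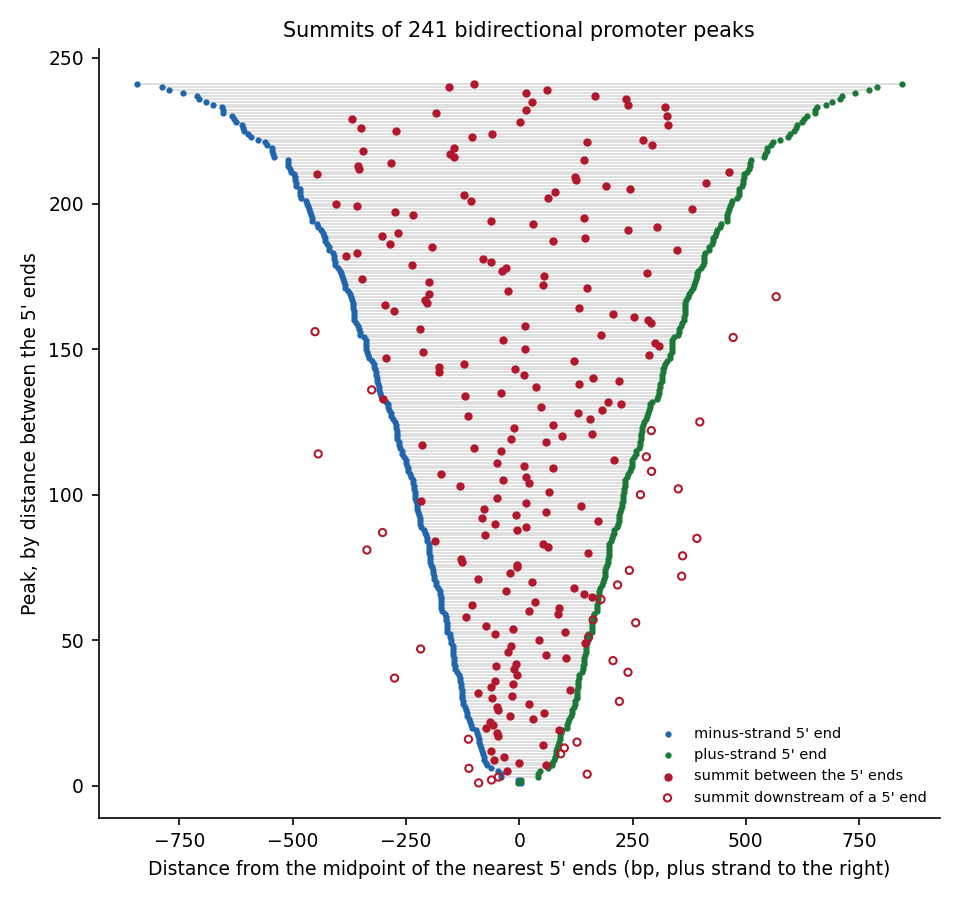
Position of the summit (x axis, bp from the midpoint of the nearest 5' ends) in each of the 241 members, ordered by the distance between those 5' ends (y axis). Filled red points are the 205 summits between the 5' ends, open points the 36 downstream of a 5' end, blue and green points the minus-strand and plus-strand 5' ends.

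Members were dense for the amount of DNA that bidirectional promoters cover. Such DNA came to 2.34 Mb, or 8.93% of all promoter DNA, and held 103 members per Mb, against 31.4 peaks per Mb in one-direction promoter DNA. In replicate 1's own list these densities were 73.1 and 20.6 per Mb, and in replicate 2's 53.4 and 15.5 per Mb, so members were denser in each. At a matched distance to the nearest 5' end the order was the same. Within 100 bp there were 117 members per Mb and 37.5 one-direction peaks per Mb, at 100 to 200 bp 114.5 and 40.9, and at 200 to 500 bp 108 and 37.9. Between 500 and 1000 bp there were only 9 members (30.3 per Mb, against 20.4 per Mb). In replicate 1's list the densities in that last class were 13.4 and 13.4 per Mb, and in replicate 2's list, with 6 members, 20.2 and 10.6 per Mb, so the replicates differed there. GC content moved with the class of peak, as given below, and its part in these densities was not tested.

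Among 2556 annotated diverging neighbour pairs under 2000 bp apart, 181 (7.08%) had a member between their outermost 5' ends. The share was 3.23% of pairs under 200 bp apart, 9.62% at 200 to 400 bp, 9.98% at 400 to 600 bp, 10.4% at 600 to 1000 bp and 2.82% of pairs farther apart. It was thus lowest for the closest and the most distant pairs, but both are limited by construction. The most distant pairs are limited because a summit must be within 1000 bp of both 5' ends. The closest pairs hold little DNA between their 5' ends, and these shares are per pair and not per Mb.

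Members were unevenly spread over the chromosomes. Chromosome III had 64, I 52, IV 42, II 40, V 34 and X 9. Per Mb of bidirectional promoter DNA this was 175 on III, 127 on I, 100.2 on IV, 95.4 on II, 70.3 on X and 56.97 on V. One-direction peaks were also densest on III and I, with 49.5 per Mb on III, 53.1 on I, 28.3 on IV, 26.6 on II, 27.3 on X and 17.2 on V. X held 3.73% of the members (95% interval 1.72 to 6.97%) against 13.6% of one-direction peaks (11.2 to 16.3%). In the replicates' own lists X held 3.51% and 4% of members, against 12.4 and 15.6% of one-direction peaks. X also held only 5.48% of bidirectional promoter DNA, against 15.7% of one-direction promoter DNA. Per Mb of bidirectional promoter DNA, X was thus below the 103 of all chromosomes but above V. The strongest of the 9 X members lay between asg-2, a subunit of ATP synthase, and the glutamate receptor gene glr-6 (chrX:6840937-6841042), and its signal values were 218 in the main list, 111 in replicate 1 and 108 in replicate 2. Of the 9, 7 had the pattern within 50 bp and 2 were in both replicates' lists.

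**Figure D2:**
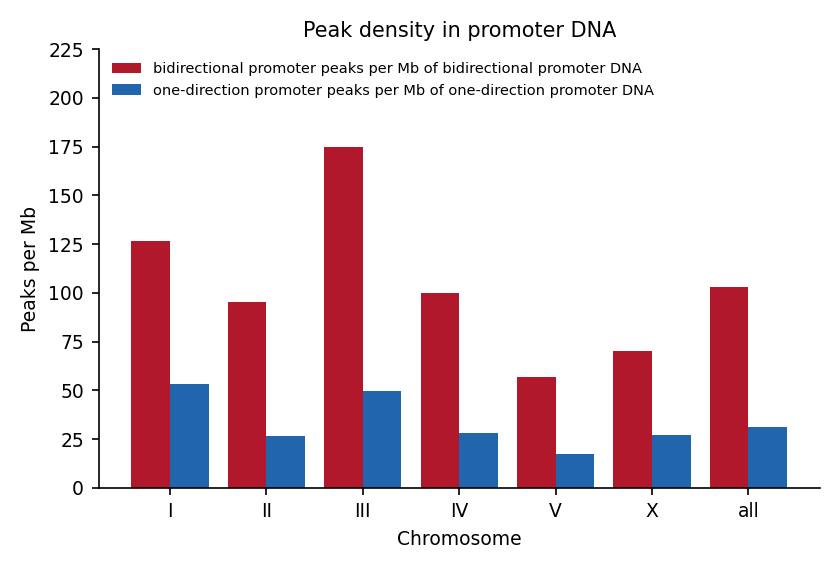
Peaks per Mb (y axis) on each chromosome and over all (x axis), for bidirectional promoter peaks in bidirectional promoter DNA (red) and one-direction promoter peaks in one-direction promoter DNA (blue). Members were denser on every chromosome, most of all on III at 175 per Mb.

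The members were about as strong as the rest of the list. The signal values used here are the authors', from their peak caller and without unit, and are not scaled between lists. The median was 110 (lowest 6.33, highest 796) in members, 99.6 in one-direction promoter peaks, 102 in peaks outside promoters and 105 over all peaks. The ratio of the members' median to that of the list was 1.05 in the main list, but 0.999 in replicate 1's own list and 0.977 in replicate 2's. Neither replicate alone thus showed the members above its own list, though both were above one-direction peaks, with medians of 70.6 against 68.1 in replicate 1's list and 68.8 against 67.7 in replicate 2's. The 6 members with a signal value under 30 all overlapped another main-list peak, as 17 of the 241 members did. At the edge of the window, the 13 members whose farther 5' end was 900 to 1000 bp away had a median of 112.9, and the 10 peaks left out because the other strand's 5' end was 1000 to 1100 bp away had a median of 114.998.

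The members found in both replicates' own lists were mostly strong ones in the main list. That list was called on both replicates together, so its signal values are not independent of theirs. Of the 241 members, 95 (39.4%, 95% interval 33.2 to 45.9%) overlapped a peak in both replicates' own lists, against 42.3% of all main-list peaks. In neither list were 53 members (21.99%), against 25.1% of all peaks. The intervals of both shares include those of all peaks. With the members in 4 equal groups by signal value, from weakest to strongest, 1 of 61, 7 of 60, 31 of 60 and 56 of 60 were in both lists. Nearly all members had at least a weak counterpart, since 1 was absent from replicate 1's ranked list and 6 from replicate 2's. Over the 234 members in both ranked lists, the signal value was higher in replicate 1 in 176 (75.2%), against 63.7% of all peaks. Across these members, which are not independent replicates, Spearman's rho between the replicates' signal values was 0.57, and 0.63 over all peaks.

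**Figure D3:**
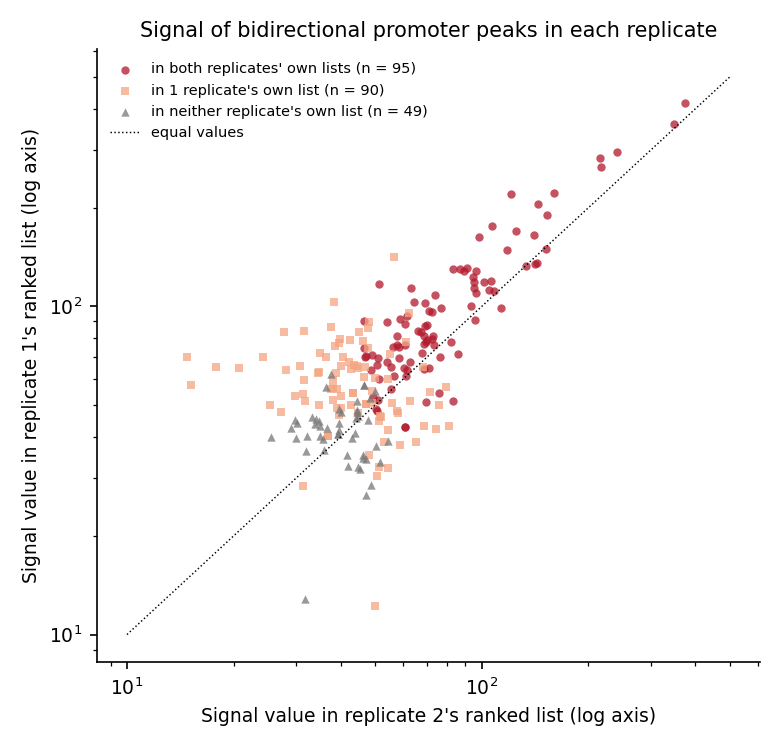
Signal value of each member in replicate 1's ranked list (y axis, log) against replicate 2's (x axis, log), by whether the member was in both replicates' own lists (95), in 1 of them (90) or in neither (49); the dotted line marks equal values. The members in both lists form the upper end, up to 417 and 375 at tasp-1.

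The 15 strongest members found in both replicates' lists had signal values of 278 to 796. Of these, 7 were on chromosome III and 12 had the pattern. The strongest lay 110 bp upstream of tasp-1 (WBGene00010480), which encodes a threonine aspartase, and 675 bp upstream of K01G5.10 (WBGene00010481), with 796 in the main list, 417 in replicate 1 and 375 in replicate 2 (chrIII:10759069-10759345). The next was at ceh-38 (WBGene00000459), a ONECUT-class homeobox gene, and malt-1 (WBGene00017702), a paracaspase homologue, with 713, 359 and 348 in the same order (chrII:6951581-6951851). Here the summit was 34 bp downstream of the ceh-38 5' end. At both loci the replicates' values were close to each other as deposited. The replicates share no scale, so here and below such comparisons describe the deposited values only.

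The peak between ZK643.2 and ZK643.5 had 539 in the main list, 296 in replicate 1 and 241 in replicate 2. That between E02D9.1 and C37A2.8 had 509, 283 and 216, and that between atx-2, an ataxin-2 homologue that binds RNA, and ecps-1 had 486, 265 and 217. Replicate 1 was the higher at each of these, as at 12 of the 15. At Y51F10.11 and spe-48, a gene of sperm function, the values were 384, 221 and 160. At unc-69, which encodes a coiled-coil protein of axon outgrowth, and ostf-4 they were 355, 190 and 152, with the summit 53 bp inside unc-69. At set-16, a histone methyltransferase gene of the MLL family, and drr-2, which encodes a translation initiation factor, they were 345, 206 and 144. The peak in the short space of 92 bp between uncp-18 and ears-2, a glutamyl-tRNA synthetase gene, had 343.4, 220 and 121, without the pattern. This pair had the widest relative gap between replicates among the 15.

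The remaining 6 of the 15 had main-list values of 278 to 306, with 135 to 175 in replicate 1 and 107 to 152 in replicate 2. They were at algn-5, of asparagine-linked glycosylation, with Y45G5AM.9, and at C41C4.9 with the carbohydrate sulfotransferase gene chst-1. Others were at the RNA-binding protein gene rbm-25 with W04D2.4, and at the nucleoporin gene npp-6 with spd-5, which encodes a centrosome scaffold. The last were idhg-1, of isocitrate dehydrogenase, with mlcd-1, a malonyl-CoA decarboxylase gene, and the spliceosome core gene prp-8 with bath-42. Only at rbm-25, idhg-1 and prp-8 was replicate 2 the higher. The 3 strongest members in neither replicate's own list were far weaker. They were at ZC262.2 and mrps-18A (111 in the main list, 55.1 in replicate 1, 50.2 in replicate 2), and at R06C1.4 and wve-1 (106, 52.5 and 48.4). The third was at hsp-90 and C47E8.4 (105, with 58.3 in replicate 1 and no entry in replicate 2's ranked list).

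The pattern was concentrated at the summits of members, but fewer members had it than other peaks. It lay within 50 bp of the summit in 133 of 241 members (55.2%, 95% interval 48.7 to 61.6%), against 71.0% (67.6 to 74.3%) of one-direction promoter peaks, 76.4% (73.9 to 78.8%) of peaks outside promoters and 66.3% of all main-list peaks. In windows 300 to 400 bp from the summit the shares were 18.9, 19.1 and 24.1% in these 3 classes. ATCGAT alone was in 38.2% of members, against 50.5% of one-direction peaks, and ATTGAT in 23.7%, against 34.3%. In replicate 1's own list the pattern was in 56.1% of members, against 75.2% of one-direction peaks, and in replicate 2's in 64.8%, against 75.2%. The interval of the members' share in replicate 2's list, 55.8 to 73.1%, overlaps that of the one-direction peaks, 70.5 to 79.5%. The pattern came from earlier results of these data, so these shares are a description.

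**Figure D4:**
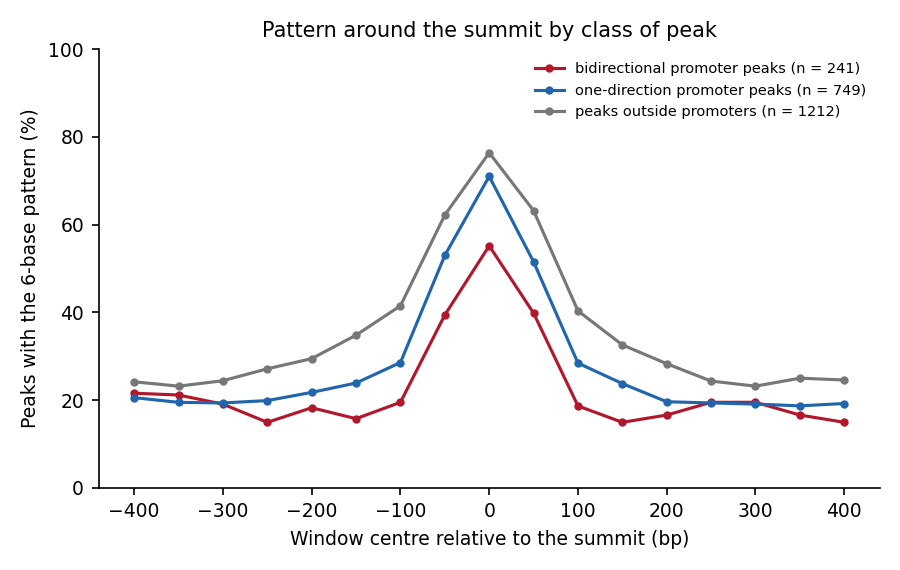
Share of peaks with ATCGAT or ATTGAT (y axis, %) within 50 bp of each distance from the summit (x axis, bp) for members (red), one-direction promoter peaks (blue) and peaks outside promoters (grey). All 3 curves peak at the summit, at 55.2, 71.0 and 76.4%.

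Members with the pattern were somewhat stronger than members without it. The median signal value was 114.8 in the 133 with the pattern and 100.9 in the 108 without. In replicate 1's ranked list the medians were 65.5 and 57.6, and in replicate 2's 52.5 and 47.1. Of members with the pattern 45.9% (37.2 to 54.7%) were in both replicates' lists, against 31.5% (22.9 to 41.1%) of those without. In the same 4 groups by signal value, from weakest to strongest, the pattern was in 45.9, 48.3, 51.7 and 75% of members. In one-direction promoter peaks cut in the same way it was in 57.4, 72.2, 77.5 and 77.01%. The strongest groups of both classes were thus close, and the 3 weaker groups lower in members.

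The members' summits were also richer in G and C. Within 50 bp GC content averaged 45.3% ± 8.06 in members (SD over 241 peaks), 41.7% ± 11.1 in one-direction promoter peaks (749) and 36.7% ± 12.5 in peaks outside promoters (1212). Members with the pattern averaged 42.8% and those without it 48.3%. When all peaks were cut into 3 GC classes at 34.7 and 47.5%, the pattern was in 25 of 30 members of low GC (83.3%), against 90.5% of one-direction peaks. In the middle class it was in 63.3% of members (95% interval 53.5 to 72.3%), against 76.4% (71.2 to 81.1%), and in the high class in 38.2%, against 46.6%. Members were thus lower in all 3 classes, though in each the intervals overlapped. Whether GC content accounts for the difference between the classes of peak was not tested.

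The pattern also differed with the summit's place. Of the 36 members with the summit downstream of a 5' end, 30 had it (83.3%, 95% interval 67.2 to 93.6%), against 103 of the 205 with the summit between the 5' ends (50.2%, 43.2 to 57.3%). In replicate 1's own list these were 19 of 21 and 77 of 150, and in replicate 2's 17 of 19 and 64 of 106. Among one-direction promoter peaks the pattern was in 91 peaks with the summit downstream (79.1% of such peaks) and in 441 with it upstream (69.6%). The members downstream of a 5' end had a lower GC content, 40.95% ± 8.54 against 46.0% ± 7.75, and a similar median signal value, 109 against 111. The ceh-38 and unc-69 peaks are the strongest of these 36. In the gap between the 5' ends the pattern showed no steady order, with 57.9, 51.6, 55.1, 55.1 and 61.3% of members from the closest pairs (under 200 bp) to those 1000 bp or more apart.

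Words rich in G and C led among the 108 members without the pattern, and among one-direction promoter peaks without it. CGCGCA was in 21.3% of the 108 members at the summit, against 0.926% of the windows 300 to 400 bp away, and GCGCAC in 20.4%, against 0.463%. Over all 241 members those windows were poorer in G and C, with a mean of 36.7%, against 45.3% within 50 bp of the summit. Whether GC content accounts for the shares of these words, here or between the classes of peak below, was not tested. These words were picked from 2080 words of 6 bases after their counts were seen, so the shares describe and do not test. Either word was in 22.8% of all 241 members (17.7 to 28.7%), 12.1% of one-direction promoter peaks (9.90 to 14.7%) and 7.18% of peaks outside promoters (5.79 to 8.78%). In the replicates' own lists it was in 24.6 and 24.8% of members, against 14.1 and 14.6% of one-direction peaks. Among members without the pattern it was in 32.4% (23.7 to 42.1%), against 21.7% (16.4 to 27.7%) of one-direction peaks without it, and among members with it in 15.04%. The atx-2 and hach-1 sequences above each hold such words at several places, and those of tasp-1 and ZK643.2 hold them beside the pattern. Neither set of words was within 50 bp in 73 members (30.3%).

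Over all 19973 protein-coding genes, 474 (2.37%) had a member in the promoter window, and 5872 (29.4%) had a promoter window that overlaps one on the other strand by annotation. The second share differs widely between gene groups, and a group rich in diverging pairs has more places for a member. The groups are whole classes by gene symbol, and a gene can be in more than 1. Of 25 groups, 16 had 3 or more genes at members. No test of a group was made, and the counts describe these lists. A promoter peak of any kind was at 6.07% of all protein-coding genes and 33.3% of ribosomal protein genes. It was at 34 chromatin regulator genes (24.1%) and 19 ubiquitin system genes (20.7%), of which 13 and 4 had a member. It was at 3.03% of proteasome genes and 5.15% of germline and P granule genes. High shares in a group were thus not particular to members.

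In protein synthesis, 17 of 81 ribosomal protein genes (20.99%) had a member, with 65.4% in overlapping promoters by annotation. The strongest were at rpl-15 (178 in the main list, 114 in replicate 1, 63.3 in replicate 2) and rpl-20 (153, 81.2 and 72.8), both without the pattern. Of the 17 genes, 7 had the pattern at their strongest member (41.2%, against 56.1% of all 474 genes) and 5 had that member in both replicates' lists, against 196 of all 474 genes. The ribosomal protein genes rpl-39 and rps-30 had 1 peak that lay in the windows of both. Its values were 79.8 in the main list and 59.4 in replicate 1, with no entry in replicate 2's ranked list. Of 73 translation factor and tRNA synthetase genes 8 had a member, with 52.1% in overlapping promoters, led by ears-2 as above and erfa-3, a release factor gene (130, 64.4 and 68.8). In the mitochondrial ribosome 7 of 70 genes had one, with 42.9% in overlapping promoters, led by mrps-28 (227, 119.2 and 106) and mrpl-40 (214, 110 and 96.5), both in both replicates' lists.

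In energy metabolism, 12 of 75 respiratory chain genes had a member, and 48 of the 75 were in overlapping promoters. After asg-2, given above with the X members, the strongest was at nduv-3, a subunit of NADH dehydrogenase. Its peak lies in the 185 bp between it and mdf-2, a spindle checkpoint gene, and had 207 in the main list, 130 in replicate 1 and 83.0 in replicate 2. In a separate group of mitochondrial import and chaperone genes, 10 had a member (9.90%), with 49.5% in overlapping promoters. All 10 were chaperone genes with dnj, hsp or cct symbols, which need not be mitochondrial. The strongest were dnj-28 (129, 56.8 and 79.4) and dnj-1 (124, 69.5 and 58.6). Of the 10, 2 had their strongest member in both replicates' lists, against 196 of all 474 genes. The pattern was at 1 of these 10, dnj-1, against 266 of all 474 genes (56.1%).

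**Figure D5:**
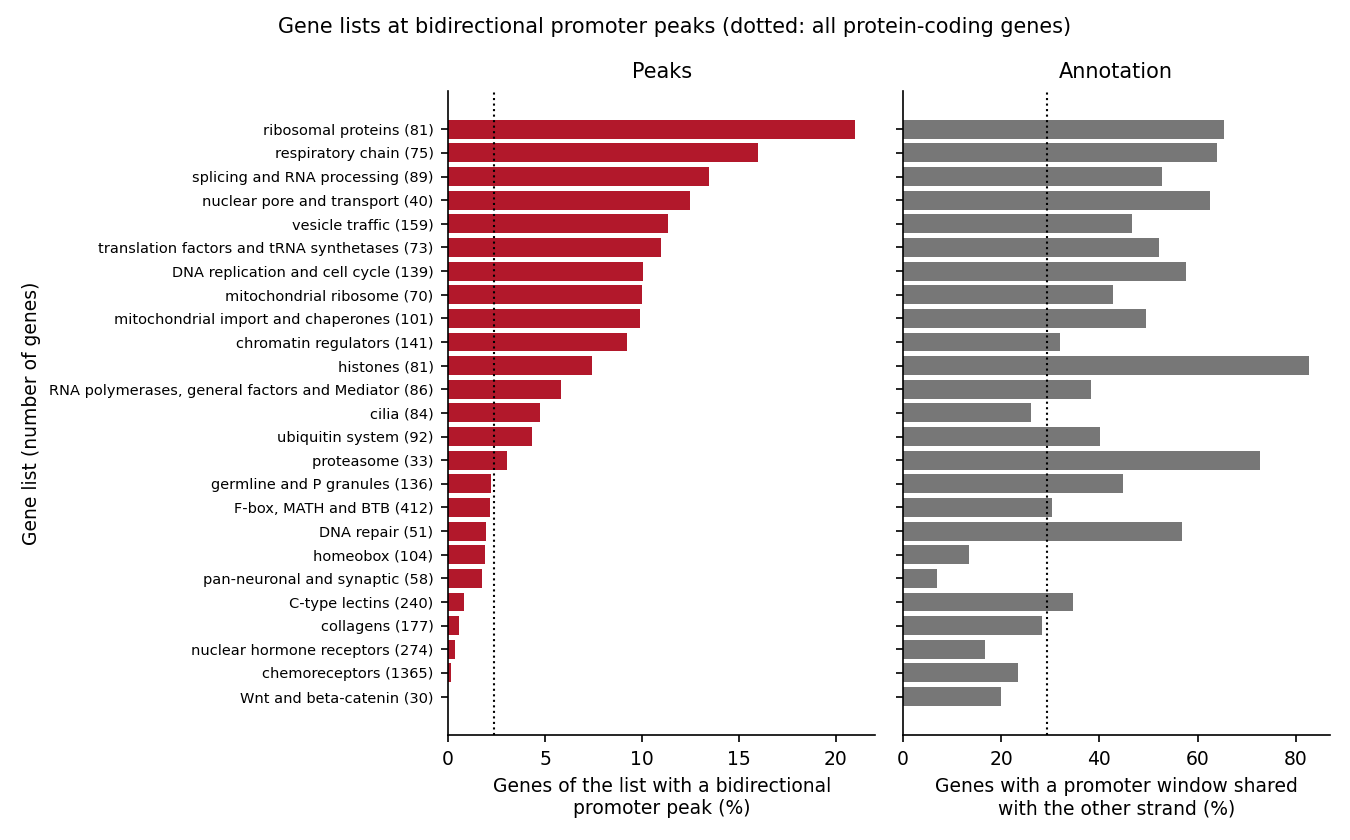
For each gene group (rows, with its number of genes), the share with a bidirectional promoter peak (left, %) and the share whose promoter window overlaps one on the other strand by annotation (right, %); dotted lines mark all protein-coding genes at 2.37 and 29.4%. Ribosomal protein genes lead on the left at 20.99%, and histone genes lead on the right at 82.7% with 7.41% on the left.

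In RNA processing and transcription, 12 of 89 splicing and RNA processing genes (13.5%) had a member, with 52.8% in overlapping promoters. The strongest were prp-8 (278, 135 and 141) and hrpf-1 (220, 128 and 89.4), which encodes an hnRNP F homologue. The SR protein genes rsp-1 and rsp-2 diverge with 1 member between them. It had 147 in the main list, 65.5 in replicate 1 and 68.2 in replicate 2 and was in replicate 2's own list only. The nearest 5' ends of their protein-coding transcripts were 1019 bp apart. The genes themselves are closer, with rsp-2 annotated up to chrII:11452955 and rsp-1 from chrII:11453362. Of 86 genes of RNA polymerases, general factors and Mediator, 5 had a member, with 38.4% in overlapping promoters, led by gtf-2H3 of the general factor TFIIH (234, 118 and 101.2) and mdt-19 of Mediator (189, 100.1 and 93.1). All 5 had the pattern and were in both replicates' lists.

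In chromatin and the nucleus, 13 of 141 chromatin regulator genes (9.22%) had a member, with 31.9% in overlapping promoters, close to the 29.4% of all genes. The strongest were set-16 as above and swsn-6, a gene of the SWI/SNF complex, which had 202 in the main list, 97.8 in replicate 2 and no entry in replicate 1's ranked list. The list also held lin-35, the Rb homologue, which shares a member with vps-51 (166, 117 and 51.3). Also in it was lin-54, of the DREAM complex, which shares a member with rpl-12 (116.1, 65.6 and 44.4). Only 2 of the 13 genes, set-16 and lin-35, had their strongest member in both replicates' lists, against 196 of all 474 genes. Of 81 histone genes, 67 (82.7%) lie in overlapping promoters. Of these 67, 8.96% had a member, near the 8.07% of all genes in overlapping promoters. In all, 6 histone genes (7.41%) had a member. These were 3 diverging pairs, his-67 and his-68 (130, 74.5 and 46.7), his-41 and his-35 (99.7, 43.0 and 60.6), and his-3 and his-4 (73.3, 40.3 and 36.9). None of the 6 genes had the pattern. The pairs his-41/his-35 and his-3/his-4 each had a second, weak summit (14.2 and 6.33) that overlaps the same replicate entries. Histone genes are near-identical copies, and how reads that fit several copies were placed is not given in the sources used here, so these values are uncertain.

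For the cell cycle, 14 of 139 replication and cell cycle genes (10.1%) had a member, with 57.6% in overlapping promoters. Here spd-5 led, at the peak it shares with the nucleoporin gene npp-6 (293, 175 and 107), followed by mdf-2 as above. The cyclin B gene cyb-1 diverges from orc-5, of the origin recognition complex, across 628 bp. Their member had 135, 67.9 and 62.9 and was in both replicates' lists. Of 40 nuclear pore and transport genes 5 had a member, with 62.5% in overlapping promoters, led by npp-6 and ran-1, the Ran GTPase gene (146, 79.8 and 72.4). Of 51 DNA repair genes 1 had a member, with 56.9% in overlapping promoters, and of 33 proteasome genes 1, with 72.7%. These 2 groups were thus near the 2.37% of all genes despite their many diverging pairs.

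In vesicle traffic 18 of 159 genes (11.3%) had a member, the largest number of any group, with 46.5% in overlapping promoters. The strongest were nsf-1, the NSF fusion ATPase gene (220, 130 and 86.7), and arf-6, a small GTPase gene (218, 123 and 94.3). The pattern was at 13 of the 18. The ubiquitin system had 4 of 92 genes at members, with 40.2% in overlapping promoters, led by ubc-6 (126.2, 65.3 and 55.4) and uba-5 (107, 48.0 and 57.7). Of 84 genes in the cilia group 4 had a member, with 26.2% in overlapping promoters, led by ift-43 of intraflagellar transport (164, 96.5 and 72.3) and tmem-107 (119.3, 70.6 and 47.1). The others, tmem-131 and tmem-39, were in the group by symbol, and whether they act in cilia was not checked.

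Among gene families of tissue-specific or environmental function, there were 2 among 1365 chemoreceptor genes, 1 among 274 nuclear hormone receptor genes, 1 among 177 collagen genes and 2 among 240 C-type lectin genes, against 2.37% of all genes. Their shares in overlapping promoters were 23.4, 16.8, 28.2 and 34.6%, against 29.4% of all genes. Homeobox genes had 2 (1.92%), at ceh-38 and ceh-100, and among 58 pan-neuronal and synaptic genes 1, the synaptotagmin gene snt-2, which shares its member with rps-29 (141, 78.8 and 70.2). Both shares of genes (1.92 and 1.72%) were near the 2.37% of all genes. Only 14 homeobox genes (13.5%) and 4 pan-neuronal and synaptic genes (6.90%) lie in overlapping promoters, so little can be read from these counts. None of 30 Wnt and beta-catenin genes had a member. The F-box, MATH and BTB families had 9 of 412, a share of 2.18% near that of all genes, led by bath-42 and fbxc-44 (182, 98.9 and 77.0). Of 136 germline and P granule genes 3 had a member, with 44.9% in overlapping promoters, led by spe-48 and mex-1, an RNA-binding protein gene (109, 69.9 and 40.6).

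In 7 pairs of genes of the same group, with 9 peaks, the partners were the nearest genes to the summit on opposite strands. The summit lay between the partners' 5' ends except at the stronger his-3/his-4 peak and the weaker his-41/his-35 peak. There it was downstream of the 5' ends of his-4 and his-41. Besides the histone, splicing, ribosomal and cell cycle pairs above, the 7 pairs included fbxb-61 and fbxb-63, with 124 in the main list, 50.2 in replicate 1 and 75.7 in replicate 2. Of the 7 pairs, the members of his-67/his-68, cyb-1/orc-5 and his-41/his-35 were in both replicates' lists. Neither the tagged gene T22C8.4 nor unc-119, which the transgene also carries, had a member in its window. The nearest main-list summit was 14752 bp from the 5' end of T22C8.4 and 12078 bp from that of unc-119.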

How the data were processed

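The authors called peaks on each replicate alone and, for the main list, on the replicates combined; per the deposited notes, the lists come from alignments and a control alignment on ce11, and sonicated DNA ranged from 200 to 800 bp per the labels. Sources used here give no aligner, peak caller or version. The signal is the authors' peak caller's value over the control, with no unit and no scaling between lists. The score was computed by the authors from the irreproducible discovery rate, which ranks peaks by their repeatability, and stops at 1000; the lowest in the main list is 830. The -log10 q-values were deposited by the authors and are not reported.

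Summits are the deposited start plus offset. Genes and 5' ends came from the Ensembl annotation of WBcel235, and sequence from the RefSeq copy of that assembly. Lists share a peak at 1 bp of overlap. A replicate's value is that of the overlapping ranked entry with the nearest summit, so neighbouring members can share an entry. Words of 6 bases were sought on both strands within 50 bp of the summit. With 1 group there was no test, and shares carry exact binomial 95% intervals.

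The members, gene groups and pattern were chosen with earlier results of these data known. The respiratory chain group was widened after nduv-3 had been seen. The split of members by the summit's place, the matched distances and the words CGCGCA and GCGCAC were chosen after seeing the data. Named genes were T22C8.4, unc-119, the 15 strongest members in both replicates' lists, the 2 strongest genes of each group with 3 or more, pairs in 1 group, the 3 strongest members in neither list, and the closest and most distant pairs. Genes named beside these, such as lin-35, lin-54, snt-2 and the single genes of small groups, were chosen after their values were seen. The alternatives tried were another list than the main one (conservative, or of 1 replicate), the main list's stronger peaks alone, other windows and 5' ends, other rules on small noncoding genes and overlap, and the strongest peak of each pair. The calls of peak class, words and overlap were tested on simulated data with isolated genes and word windows of C and G only. The other steps were not tested in this way. Python 3.11.15, pandas 2.3.3, NumPy 2.4.6, SciPy 1.17.1 and matplotlib 3.10.9 were used.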

Additional observations from a re-analysis of the deposited data

How the results depend on the processing

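Of 62 alternative values, 41 stayed within the interval or margin of the main value and 21 moved. For the number of members the margin was wide, so 171 without replicate 2, against 241 in the main list, counted as kept. Without replicate 1 it was 125, which counted as moved. The number was 136 in the stronger part of the main list, 147 with windows of 500 bp either side and 365 with 2000 bp upstream. Under these 3 settings, in the same order, their share of promoter summits was 28.6, 16.2 and 29.9%. The share in both replicates' lists was 66.2% in the stronger part of the main list and 56.1 to 76% in the single replicates' lists, where every peak is in 1 list already. The ratio of the members' median signal value to that of the list, 1.05, was 0.977 to 0.999 in the single replicates' lists and 0.898 in the stronger part of the main list. With windows of 500 bp either side it was 1.08, with 2000 bp upstream 1.02, with outermost 5' ends 1.07, and with the strongest peak of each pair, chosen after seeing the data, 1.08. It thus went below 1 in the single replicates' lists and in the stronger part of the main list. The share with the pattern was 56.1 to 64.8% in the single replicates' lists, 63.2% in the stronger part of the main list, and 35.3 and 69.7% with word windows of 25 and 100 bp. In the main list and under 9 alternatives of list, window, 5' end and noncoding gene rule it was lower in members than in one-direction promoter peaks. The share with the summit between the 5' ends stayed at 83.0 to 87.7%. The cause of the moves was not tested. No paired analysis was possible because there was 1 group. Depth was unknown, so a weak member cannot be told from a shallow one, and the 2 replicates share no scale.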

Other observations

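Of the 241 members, 25 (10.4%) had the summit within 150 bp of a gene annotated as ncRNA, against 6.81% of one-direction promoter peaks and 12.2% of all main-list peaks. There were 3 near a snoRNA gene (1.24%, against 2.40% of all main-list peaks), 2 near a piRNA gene (0.830%, against 0.580%) and 1 near an snRNA gene (0.415%, against 0.373%). None was near a microRNA gene or pseudogene, against 0.414 and 1.95% of all main-list peaks, and 0 of 241 members has an exact binomial upper limit of 1.52%.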
